A study of Mus musculus with 4 samples.

Results

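The 9 genes of stressed heart muscle described here, of 21885 genes in the count tables, are Sprr1a, Xirp2, Flnc, Csrp3, Clu, Des, Cryab, Hspb1 and Hspb7. They were picked by name with their levels across the sections, and by distance from the infarct, already known from these data, so those levels are given as a description with no test. Tests are given only for comparisons that the choice did not use, namely the tissue edge against the inner wall and macrophage-rich against macrophage-poor border spots, and for related genes outside the 9.

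The hearts came from Collagen1a1-GFP+ mice aged 8 to 12 weeks, in which the promoter of a collagen gene drives a green fluorescent protein in fibroblasts, and the uninjured control carried the same reporter. Infarction was made by permanent ligation of the left anterior descending coronary artery, and hearts were taken at 3 or 5 days post-infarction (dpi). Visium arrays captured polyadenylated RNA from 1 frozen section of 10 µm per heart: 1 control, 1 at 3 dpi and 2 at 5 dpi. The pair at 5 dpi is written 5 dpi-F (labelled female) and 5 dpi-M (labelled male), although the 4 Y-linked genes checked gave 704 unique molecular identifiers (UMIs) in 5 dpi-F and 1 in 5 dpi-M. A single heart stands for the control and for 3 dpi, and a spot can cover several cells, so that fewer cells of a type and less RNA per cell cannot be told apart.

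Between 1146 and 1741 spots per section were kept, with 6250183 to 11010109 UMIs per section. The 12 cardiomyocyte marker genes were all detected in every section, at 101295 CPM (UMIs scaled to a total of 1000000 outside mitochondrial genes) in the control and 19812 to 45259 CPM after infarction, which fits the heart label. Mitochondrial UMIs made up 40.1% in the control and 13.3% to 21.4% after infarction. The infarct zone (IZ) was drawn from patches of spots low in the same 12 marker genes, border zone 2 (BZ2) lay 1 to 2 spot steps outside it, border zone 1 (BZ1) 3 to 4 steps, and the remote zone (RZ) 5 steps or more. None of the 9 genes is among those 12.

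Cardiomyocytes that survive at the rim of an infarct are known to switch on genes that reinforce the contractile lattice and hold damaged proteins in solution. Xirp2, Flnc and Csrp3 encode proteins of the Z-disc, the structure that anchors thin filaments at the ends of each sarcomere, and Des encodes desmin, the intermediate filament that ties Z-discs to each other and to the cell surface. Cryab, Hspb1 and Hspb7 are small heat shock proteins, which bind unfolding proteins without using ATP and favour Z-disc and filament clients, Clu encodes clusterin, a secreted chaperone, and Sprr1a encodes a small proline-rich protein first known from epidermis and from injured neurons.

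Of the 9 genes, 7 had an entry in the RefSeq promoter table (GRCm38.p6); Clu and Cryab had none. The 150 bases before the annotated start of the 3 genes below are shown because they hold the AP-1 matches and the repeated heat shock element found in no other member. Capitals in Sprr1a mark the AP-1 motif TGANTCA at 2 places and then the TATA box, with the letters TATAAA. Capitals in Xirp2 mark AP-1 and then a MEF2 site, and those in Hspb1 mark a heat shock element of the form GAANNTTC at 2 places and then the M-CAT motif CATTCC, which here lies on the opposite strand. Both strands were searched.
Sprr1a, chr3:92485882-92486031, minus strand: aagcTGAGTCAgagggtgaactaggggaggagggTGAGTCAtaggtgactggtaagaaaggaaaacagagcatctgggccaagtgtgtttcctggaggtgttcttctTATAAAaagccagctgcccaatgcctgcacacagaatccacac
Xirp2, chr2:67445852-67446001, plus strand: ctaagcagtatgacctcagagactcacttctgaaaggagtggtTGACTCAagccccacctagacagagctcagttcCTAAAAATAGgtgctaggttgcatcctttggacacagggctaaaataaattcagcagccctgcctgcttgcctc
Hspb1, chr5:135887769-135887918, plus strand: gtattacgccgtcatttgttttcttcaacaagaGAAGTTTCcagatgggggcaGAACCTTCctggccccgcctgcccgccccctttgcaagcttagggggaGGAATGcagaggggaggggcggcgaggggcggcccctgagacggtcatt

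The AP-1 letters begin 146 and 116 bases before the Sprr1a start and 107 bases before the Xirp2 start, and 7.81% of 32851 promoter windows of 300 bases hold them. The heat shock elements of Hspb1 begin 117 and 97 bases before its start, and 7.86% of windows hold that form. Other member windows matched the same form once in Csrp3 and M-CAT in Flnc and Hspb7, and M-CAT is found in 14.7% of windows. The TATA letters are in 13.6% of windows and the MEF2 site in 3.19%. The Des window held no searched motif, and STAT (TTCNNNGAA, 8.30% of windows), TTCNNGAA (8.52%) and the CArG box (1.63%) were found in no member window. A match here is a match of letters alone.

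As a fold over the control, Sprr1a showed the widest range of the 9 genes, while Clu did so in CPM. Sprr1a gave 0 UMIs in the control, against a limit of 0.802 CPM set by 3 counts. It gave 627 CPM at 3 dpi, 620.3 CPM in 5 dpi-F and 1005 CPM in 5 dpi-M, so each infarcted section was at least 774-fold higher than the control. No control spot held a Sprr1a UMI.

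Clu was 518 CPM in the control and 3513, 4596 and 4490.3 CPM at 3 dpi, in 5 dpi-F and in 5 dpi-M. All infarcted sections stood far above the control, and both 5 dpi hearts lay above the 3 dpi heart. Xirp2 was highest at 3 dpi, with 139 CPM in the control, 461 CPM at 3 dpi, 268 CPM in 5 dpi-F and 251 CPM in 5 dpi-M. These 3 genes were at least 1.5-fold above the control in 3 of 3 infarcted sections, as were 36.7% of the 6115 genes with at least 20 CPM on either side in each section, and none of the 9 was 1.5-fold lower in all 3 (13.5% of genes). The choice of members used these levels, so nothing is read from that count.

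Des ran at 1228, 3021, 2028 and 1803 CPM in the order control, 3 dpi, 5 dpi-F, 5 dpi-M, highest at 3 dpi. Flnc followed the same order at 205, 394, 254 and 289 CPM. Desmin and filamin C transcripts were thus above the control in all 3 infarcted sections, with the 3 dpi heart on top. Hspb1 was closer to flat, at 526, 702, 549 and 689 CPM.

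By CPM, the remaining genes did not exceed the control in all infarcted sections. Csrp3, which encodes the muscle LIM protein, was lower in each infarcted section taken whole, at 2705, 1980.4, 1111 and 1896 CPM. Cryab was 3760.4, 3917, 1858 and 3331 CPM, and Hspb7 was 1091, 1312, 767 and 933 CPM. With mitochondrial UMIs in the denominator, the log2 ratio of 5 dpi-M to the control was 0.0050 for Csrp3 and 0.34 for Cryab, and Hspb7 was above the control in 3 of 3 sections (0.66, 0.026 and 0.29). By CPM, Cryab and Hspb7 were above the control at 3 dpi alone and lowest in 5 dpi-F, the section with the least cardiomyocyte RNA.

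Per 1000 UMIs of the 12 cardiomyocyte markers, every one of the 9 genes was higher in each infarcted section than in the control. Clu went from 5.12 in the control to 77.6, 232 and 121, Cryab from 37.1 to 86.6, 93.8 and 89.9, and Csrp3 from 26.7 to 43.8, 56.1 and 51.2, all as UMIs per 1000 marker UMIs. A ratio of this kind is higher wherever the markers are lower. The share of all genes higher on this scale was not computed, so nothing is read from all 9 being higher. With the 12 genes left out of the CPM denominator, the log2 ratio to the control turned from 0.059 to -0.028 for Cryab at 3 dpi and from 0.062 to -0.063 for Hspb1 in 5 dpi-F, and kept its sign for the other genes and sections.

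**Figure D1:**
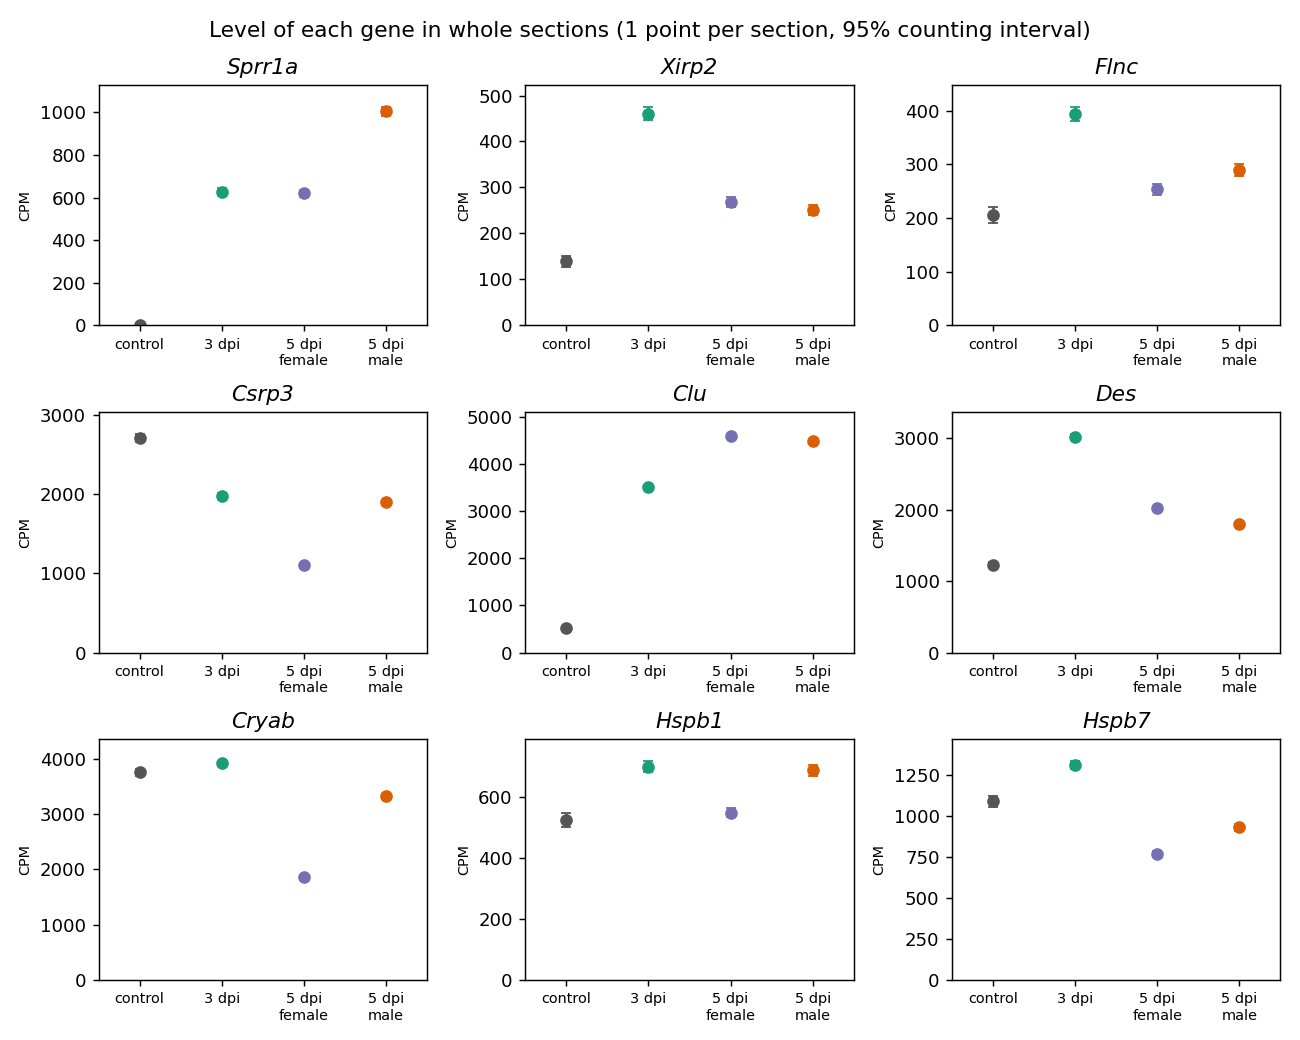
Level of each of the 9 genes in the 4 whole sections, in CPM on a linear axis from 0, with 1 point per section and its 95% counting interval (most are smaller than the point). Sprr1a sits at 0 in the control and between 620.3 and 1005 CPM after infarction, and Csrp3 is highest in the control at 2705 CPM.

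Spots were then ordered by hexagonal steps from the IZ border, in 11 distance classes from 5 or more steps inside to 10 or more steps outside, in each of the 3 infarcted sections. Sprr1a peaked inside the infarct, at 1192 CPM 2 steps in at 3 dpi, 995 CPM 1 step in for 5 dpi-F and 2696 CPM 2 steps in for 5 dpi-M. It was lowest 10 or more steps outside, at 33.0, 18.8 and 46.4 CPM. Between these ends it fell with nearly every step, and deep inside the IZ it kept 616, 685 and 1425 CPM.

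Clu peaked right at the border. Its highest class was 1 step inside at 3 dpi (5597 CPM) and in 5 dpi-M (11743 CPM), and 1 step outside in 5 dpi-F (14157 CPM). From there it fell on both sides, to 2233, 2767 and 4247 CPM deep inside the IZ and to 889, 1557 and 1684 CPM 10 or more steps out. The farthest spots thus still lay above the 518 CPM of the control section.

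Xirp2, Des, Cryab and Hspb1 also peaked within 1 step of the border in 3 of 3 sections. Xirp2 reached 698, 851 and 740 CPM there, and Hspb1 reached 941, 1060.2 and 1621 CPM. Des peaked at 4244, 5580.3 and 4315 CPM, and Cryab at 5174, 4576 and 6665 CPM. At 5 dpi all 4 were lowest in the IZ core, where Xirp2 was 89.3 and 130.4 CPM, below its control level of 139 CPM.

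Flnc, Csrp3 and Hspb7 had no peak at the border that was shared by the sections. Csrp3 was low in the IZ core, at 1118, 246 and 442 CPM, and stood at 2540.5, 4412 and 3612 CPM at 10 or more steps. Hspb7 had the same form, with 785, 246 and 325 CPM in the core and 1536, 2338 and 1616 CPM far out. Flnc ranged from 293 to 575 CPM over the classes outside the IZ, and its core values were 285, 151 and 148 CPM.

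**Figure D2:**
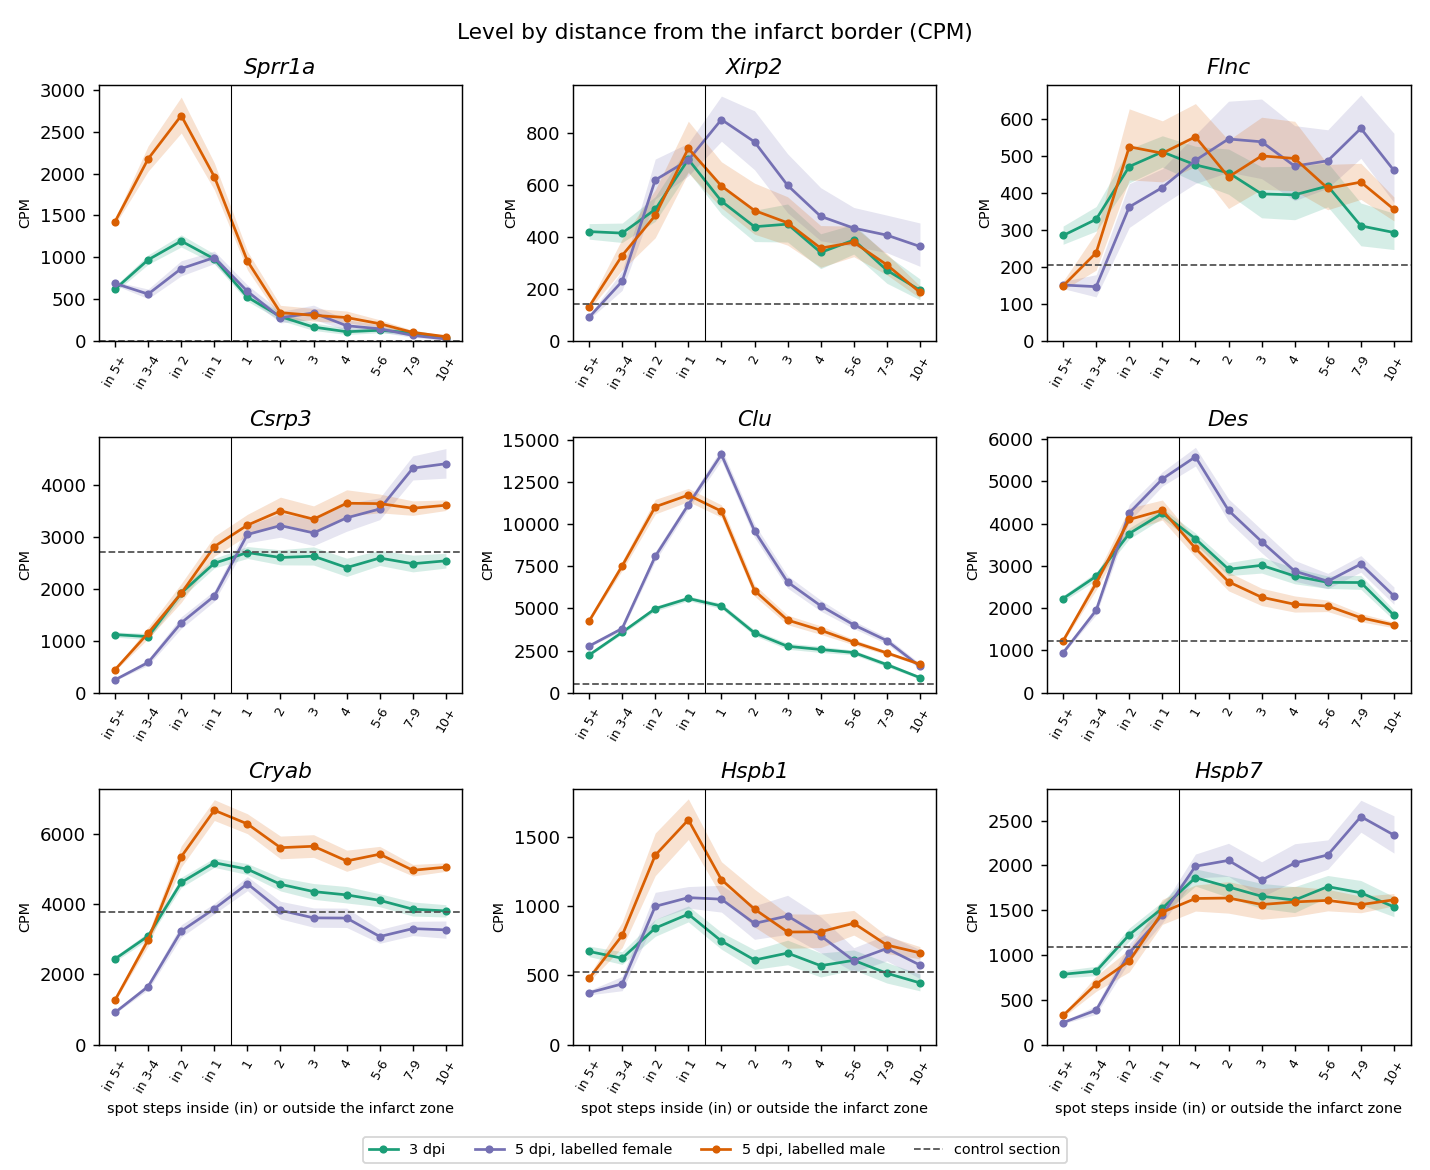
CPM of each gene (linear axis from 0) in 11 classes of distance from the infarct border, with classes inside the IZ left of the vertical line, 1 line per infarcted section, bands for 95% counting intervals and a dashed line for the whole control section. Sprr1a tops out 1 to 2 steps inside the IZ, Clu within 1 step of the border, and Csrp3 and Hspb7 decline from outside to inside.

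Between BZ2 and RZ the log2 ratio of Sprr1a was 2.66 ± 0.30 (SD, n = 3 sections), from 81.3, 80.0 and 88.2 CPM in RZ to 432, 479 and 700.4 CPM in BZ2. For Clu it was 1.86 ± 0.34, from 1635, 3049 and 2109 CPM to 4543, 12573 and 8858 CPM. Xirp2 followed with 1.0 ± 0.17 and Des with 0.77 ± 0.21. The 3 values of each of these genes were all above 0.

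Among the small heat shock proteins, Hspb1 had a log2 ratio of 0.56 ± 0.13 and Cryab of 0.32 ± 0.10 (SD, n = 3 sections), both above 0 in 3 of 3 sections. Hspb7 (-0.02 ± 0.18), Csrp3 (-0.14 ± 0.23) and Flnc (0.28 ± 0.25) did not keep 1 direction by CPM. With mitochondrial UMIs in the denominator, Flnc (0.64, 0.27 and 0.52) and Hspb7 (0.32, 0.070 and 0.16) were above 0 in 3 of 3 sections, and Csrp3 was 0.25, -0.10 and 0.019. Sprr1a, Clu and Xirp2 were at least 1.5-fold higher in BZ2 in every infarcted section, as were 4.63% of 5139 genes at 20 CPM or more, and none of the 9 was 1.5-fold lower (1.89% of genes). From BZ2 to the whole IZ, none of the 9 was 1.5-fold higher in every section (16.2% of 6139 genes), and Csrp3 and Hspb7 were lower by that factor in each (10.5% of genes). These contrasts chose the members, and the counts are given as a description.

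Fibroblast markers were higher toward the infarct as well. Their summed level went from 2532 to 3569 CPM in RZ to 6230 to 8641 CPM in BZ2 and 11165 to 21060 CPM in the IZ over the 3 sections, with 7 of 7 genes detected in each, while macrophage markers went from 1478 to 1938 CPM to 2292 to 3203 CPM and then 7089 to 11176 CPM (8 of 8 genes). Their part in the levels of the 9 genes was not tested.

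Set against the 12 cardiomyocyte markers, all 9 genes were higher in BZ2 than in RZ in 3 of 3 sections. For Sprr1a the ratio of these relative levels was 7.75, 9.59 and 10.8, for Clu 4.05, 6.60 and 5.74, and for Csrp3 1.53, 1.23 and 1.27. Deep in the IZ, Clu reached 179, 817 and 785 UMIs per 1000 marker UMIs and Cryab 196, 270.4 and 234. The IZ was drawn as spots poor in these markers, so a rise on this scale is in part fixed by how the zones were made. The share of all genes that rise on it was not computed.

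**Figure D3:**
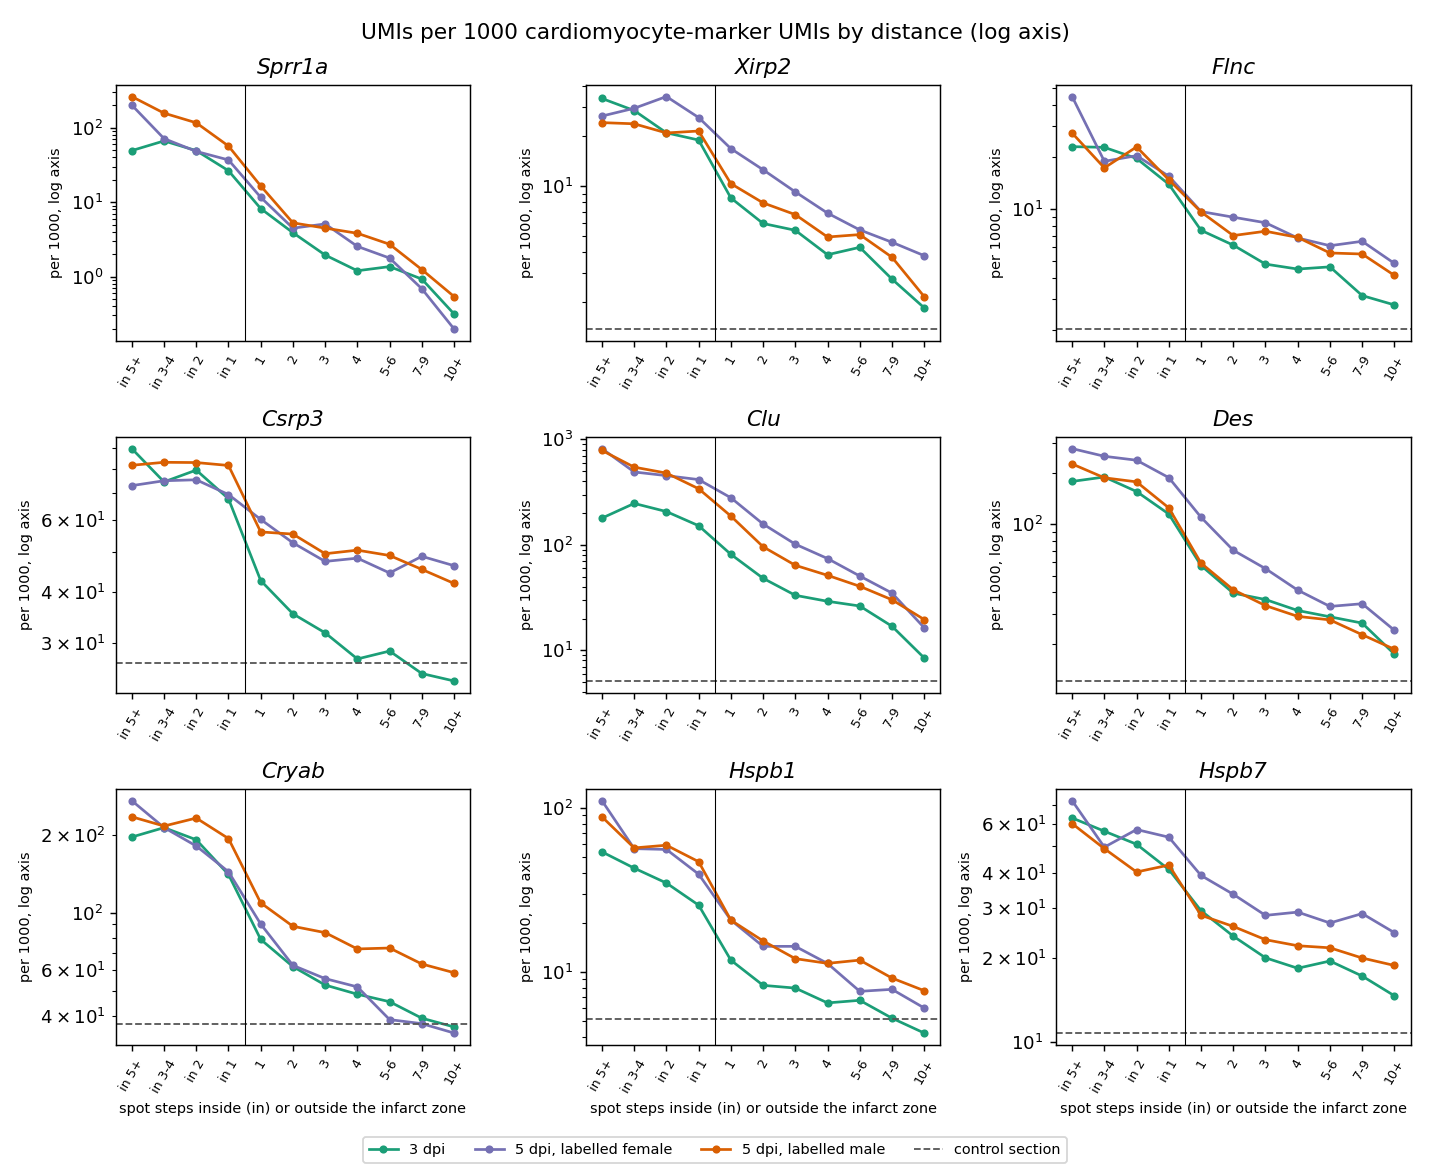
UMIs of each gene per 1000 UMIs of the 12 cardiomyocyte markers (log axis) over the same 11 distance classes, 1 line per infarcted section, with the control section dashed (Sprr1a was at 0 there and has no dashed line). All 9 genes lie higher inside the IZ than 10 or more steps outside in each section, a scale on which part of the rise is fixed because the IZ was drawn from the same markers.

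Within the IZ core, 5 or more steps inside, the spots with more cardiomyocyte marker RNA held more of these transcripts. The rank correlation over spots (342, 813 and 533 spots, which share a section and its depth) between Sprr1a and the marker share was 0.51, 0.65 and 0.77. It was 0.73, 0.73 and 0.81 for Clu and 0.34, 0.19 and 0.34 for Flnc, the lowest of the 9. With the macrophage share the correlation of Sprr1a was -0.25, -0.34 and -0.37.

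In BZ2 the sign for cardiomyocyte markers turned. Sprr1a gave -0.36, -0.06 and -0.51 over 301, 136 and 104 spots, and Des gave -0.37, -0.38 and -0.58. For Csrp3 the values were near 0, at -0.09, 0.00 and -0.13. With the fibroblast share, at 3 dpi and in 5 dpi-F, Sprr1a gave 0.20 and 0.13, Des 0.18 and 0.39, and Csrp3 0.04 and 0.05. These correlations are across spots, which are no replicates, and carry no test.

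**Figure D4:**
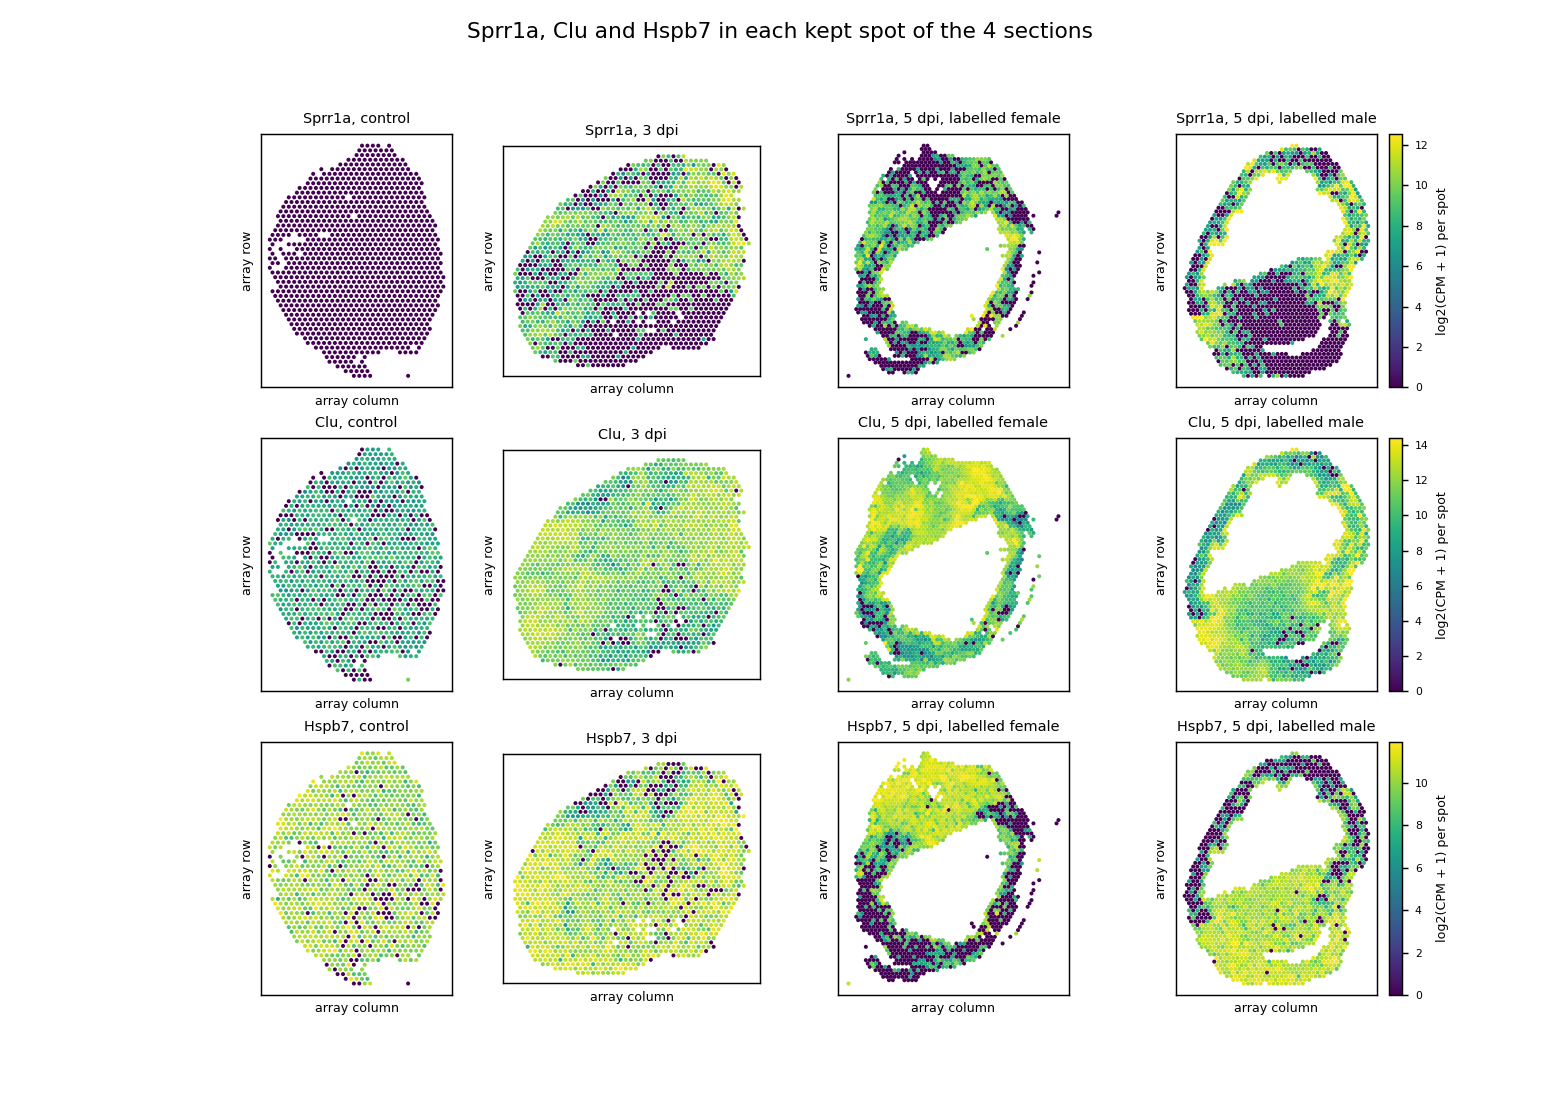
Sprr1a, Clu and Hspb7 in every kept spot of the 4 sections, laid out by array row and column, with colour giving log2(CPM + 1) per spot from 0 upward and 1 colour scale per gene. Sprr1a is at 0 in all 1146 control spots and patchy in the infarcted sections, Clu forms bands beside the infarct, and Hspb7 fills the muscle and thins out in the infarct.

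Several of the genes were above the control even in RZ. RZ levels of Clu were 1635, 3049 and 2109 CPM against 518 CPM in the control, and Sprr1a was at least 99.8-fold above the control limit. Flnc was 342, 513 and 387 CPM against 205 CPM. These genes and Xirp2 were the 4 of the 9 at least 1.5-fold higher than the control in 3 of 3 sections (7.46% of 4984 genes). With 1 control heart and the choice made on these levels, no test was run.

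The distance profiles fell into groups when compared by Pearson's r over 33 points (11 classes in 3 sections, log2 scale, each section centred on its mean). Csrp3 and Hspb7 were nearly the same curve (r = 0.99), and Des ran with Hspb1 and with Xirp2 (r = 0.94 for both pairs). Sprr1a resembled Clu (r = 0.81) and ran against Csrp3 (r = -0.55). Points of 1 section share libraries and denominators, so r is a description of shape.

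Of 3701 genes reaching 50 CPM in at least 1 class of each section, the profile most like Sprr1a was that of Ltbp2, a matrix protein gene (r = 0.98). Clu was most like Tgm2, a transglutaminase (r = 0.93), and Nppa, the atrial natriuretic peptide gene (r = 0.91). Rcan1, a calcineurin regulator, led the list for Xirp2 (r = 0.94), Des (r = 0.90) and Hspb1 (r = 0.88). Cryab went with Acta1, the skeletal alpha-actin gene (r = 0.96), and Rrad (r = 0.93), and Flnc with Nppb (r = 0.93) and Synpo2l (r = 0.92). Csrp3 and Hspb7 both had Actc1 first (r = 0.99), one of the 12 markers that drew the zones, followed by Nrap (r = 0.99) and Smpx (r = 0.98). The next most like genes were Atp1b1 for Xirp2 (r = 0.86) and Hspb1 (r = 0.84) and Cd81 for Des (r = 0.87).

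The edge of the marked tissue was compared with the inner wall outside the infarct, to see whether the 9 genes differ with position in muscle far from the border. Edge spots lacked a neighbour marked as tissue on at least 1 of 6 sides, and inner spots lay at least 2 steps in. Both classes were drawn from RZ spots of the infarcted sections (43, 22 and 98 edge spots) and all muscle of the control (146). In 5 dpi-M, 623 unmarked spots also held UMIs, so the edge of the mark there need not be the tissue edge. Steps were counted to marked IZ spots alone, so any infarct among the unmarked spots was not counted. Sprr1a was higher at the edge after infarction and absent from the control. It measured 141 against 88.5 CPM at 3 dpi, 175 against 70.2 CPM in 5 dpi-F and 189 against 67.0 CPM in 5 dpi-M (edge against inner), and 0 at both places in the control.

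Over 4 sections with the section as a block, edgeR's quasi-likelihood test gave Sprr1a a log2 fold change of 1.25 (SE 0.21, adjusted p = 0.000346). It was the single member called of 9, beside 0.226% of 5744 genes called higher and 0.0348% called lower. Hspb1 (0.38, SE 0.11), Clu (0.36, SE 0.11), Xirp2 (0.45, SE 0.14), Des (0.26, SE 0.10) and Hspb7 (0.21, SE 0.10) had unadjusted p below the threshold of 0.05, as did 6.25% of all genes tested, and did not pass after adjustment. Csrp3, Cryab and Flnc had log2 fold changes of 0.11 to 0.15.

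The call for Sprr1a was lost with DESeq2, without the block and without 5 dpi-M, with adjusted p from 7.44e-06 to 1.0 over 11 alternatives. DESeq2 gave 6 of the 9 genes an unadjusted p under 0.05 (2.18% of all genes), and without the control 3 of the 9 were called higher (0.43% of 5810 genes). Edge spots lay farther from the infarct (median 9, 9 and 12 steps) than inner spots (7, 7 and 9 steps), and several of the 9 genes fall with distance. So the comparison was repeated, chosen after seeing the data, among spots 5 to 9 steps out in the infarcted sections alone.

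Within this window 5 of the 9 genes were higher at the edge, beside 1.15% of 3994 genes (1.90% were lower). Edge and inner spots were not matched by step inside the window. This split was run by edgeR with the block alone, with no DESeq2 fit, no fit without the block and none with a section left out. Sprr1a had a log2 fold change of 1.62 (adjusted p = 7.44e-06), Xirp2 0.96 (adjusted p = 0.000148), Clu 0.69 (adjusted p = 7.96e-05), Hspb1 0.59 (adjusted p = 0.00861) and Des 0.50 (adjusted p = 0.00642), all by edgeR. Flnc, Csrp3, Cryab and Hspb7 did not pass, with log2 fold changes of 0.02 to 0.18.

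Counts behind this are small. At 5 to 6 steps Sprr1a was 238 CPM at the edge at 3 dpi (7 UMIs in 10 spots), with a 95% counting interval of 95.9 to 491 CPM that overlaps the 94.0 to 168 CPM of inner spots. It was 642 CPM (10 UMIs in 5 spots) against 114 CPM in 5 dpi-F and 459 CPM (25 UMIs in 13 spots) against 165 CPM in 5 dpi-M. At 7 to 9 steps it was 229 CPM (9 UMIs) against 75.2 CPM at 3 dpi and 353 CPM (32 UMIs) against 50.5 CPM in 5 dpi-M, and in 5 dpi-F the values were close, 57.7 CPM on 2 UMIs against 53.6 CPM. At 10 or more steps the edge gave 0 UMIs in 21 spots at 3 dpi and in 10 spots of 5 dpi-F, where 3 counts would be 67.0 and 163 CPM and the 95% counting intervals reach 82.4 and 200.2 CPM, and 96.6 CPM in 5 dpi-M against 33.3 CPM inside.

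Fibroblast markers were also higher at the edge after infarction, at 4447 against 2598 CPM, 6090 against 3290.1 CPM and 3249 against 2327 CPM, but not in the control (1034 against 1221 CPM), with 7 of 7 genes detected. Mesothelial markers, which mark the outer lining of the heart, summed to 8.82, 58.3 and 17.2 CPM at the edge against 1.04 to 9.67 CPM inside in the infarcted sections, with at most 2 of 5 genes detected, and to 26.9 against 5.25 CPM in the control. Cardiomyocyte markers were 92040 against 99356 CPM, 77330 against 89399 CPM and 76951 against 82512 CPM. The part of these cells in the edge result was not tested.

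**Figure D5:**
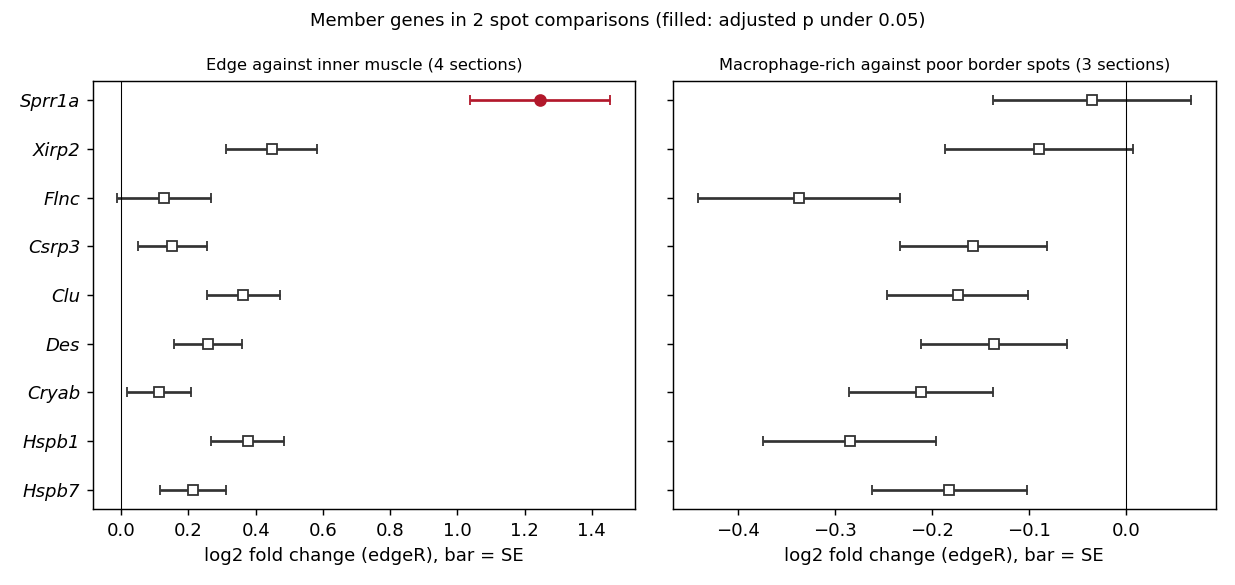
Log2 fold change of each of the 9 genes by edgeR for edge against inner muscle in 4 sections (left) and macrophage-rich against macrophage-poor BZ2 spots in 3 sections (right), with bars for the SE and filled points for adjusted p under 0.05. Sprr1a at 1.25 is the single filled point, and all 9 genes lie below 0 on the right.

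BZ2 spots were split at the median share of 8 macrophage markers at each step, to ask whether the 9 genes differ where more macrophages sit among border muscle. None of the 9 passed the test, beside 0.722% of 4296 genes called higher and 0.116% lower. All 9 point estimates were below 0, and 6 genes had an unadjusted p under 0.05 by edgeR (8.80% of all genes tested). DESeq2 also called none of the 9, and 0 had an unadjusted p under 0.05 (0.838% of all genes). The sections did not run alike. All 9 genes were lower in rich spots at 3 dpi and in 5 dpi-M, but 6 of the 9 were higher in rich spots of 5 dpi-F, Des for example at 5418 against 4857 CPM and Cryab at 4496 against 4128 CPM.

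The largest differences were in Flnc (-0.34, SE 0.10, adjusted p = 0.100) and Hspb1 (-0.28, SE 0.09, adjusted p = 0.111), both by edgeR. Flnc was 528 CPM in poor and 389 CPM in rich spots at 3 dpi, 552 and 465 CPM in 5 dpi-F and 555 and 467 CPM in 5 dpi-M. Sprr1a was 449 and 409 CPM, 447 and 512 CPM, and 726 and 678 CPM (log2 fold change -0.03, SE 0.10). Cardiomyocyte markers were 67453 and 67007 CPM, 57903 and 50701 CPM, and 58714 and 60936 CPM in poor and rich spots. Without 5 dpi-F, 4 of the 9 genes were called, all lower in rich spots (0.194% of 5160 genes were called lower). When only the spots highest and lowest in macrophage share were compared, 1 was called lower (0.0943% of 3183 genes). With other settings the estimates of Sprr1a, Xirp2 and Des came out at or just above 0.

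In all, 5 lists of 60 related genes, none of them a member, were tested by zone: small heat shock proteins, their chaperone partners, Z-disc and costamere genes, intermediate filament and linker genes, and the gp130 cytokine pathway, which signals from interleukin-6 type cytokines through STAT3 and is a known inducer of Sprr1a in the heart. Of these 53 could be tested. Il6, Il11, Lif, Osm, Cryaa, Synm and Krt8 did not pass the filter on low counts.

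Of the 53 genes, from RZ to BZ2, 1 was called higher and 4 lower by edgeR (4.21% and 4.80% of 9444 genes), in all about the share of calls over all genes. Krt18, a keratin of simple epithelia, rose with a log2 fold change of 2.28 (SE 0.39, adjusted p = 0.000817), from 2.26, 8.36 and 4.83 CPM to 14.9, 39.6 and 25.3 CPM. It rests on 59 UMIs in BZ2 over the 3 sections and passed in 11 of 11 alternatives (adjusted p up to 0.0430).

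The genes called lower were Fhl2 (-0.84), Myoz2 (-0.83), Hspb6 (-0.78) and Hspd1 (-0.71). All 4 calls were lost without the section block and without 5 dpi-F, with adjusted p over 11 alternatives up to 0.186 for Fhl2, 0.138 for Myoz2, 0.241 for Hspb6 and 0.331 for Hspd1. Fhl2 encodes a LIM protein and Myoz2 a calcineurin-binding protein of the Z-disc, Hspb6 a small heat shock protein and Hspd1 the mitochondrial chaperonin. Hspb6 went from 919, 971 and 907 CPM to 724, 550 and 584 CPM (adjusted p = 0.0205), while the members Cryab and Hspb1 were higher in BZ2 in the same sections. Bag3, whose product is a partner of the Hspb8 protein, had a log2 fold change of -0.22 (SE 0.13, adjusted p = 0.386). Medians over the lists were -0.25 (4 small heat shock genes), -0.05 (15 partners), -0.12 (22 Z-disc genes), 0.33 (6 filament genes) and 0.22 (6 gp130 genes), against 0.02 over all genes.

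The call count of 5 is not steady. It was 1 without the section block, 1 without 5 dpi-F and 2 without 5 dpi-M, and 9 with no filter on low counts. Over all genes the calls dropped from 851 to 56 without the block.

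From BZ2 into the IZ, 26 related genes fell and 4 rose (19.9% and 14.5% of 9444 genes by edgeR). All 4 tested small heat shock genes fell, Hspb6 by 2.42, Hspb3 by 2.38, Hspb8 by 1.95 and Hspb2 by 1.40 on the log2 scale. So did 18 of 22 Z-disc genes, among them Myot (-3.29) and Myoz2 (-2.58). Median log2 fold changes were -2.16 for the small heat shock genes and -2.01 for the Z-disc genes, against 0.01 over all genes.

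The median over the chaperone partners was -0.12. Of 15 partners Bag3 (-1.47), Dnajb4 (-1.21) and Hspd1 (-0.43) fell and none rose. Dsp, the desmoplakin gene, fell by 1.85 on the log2 scale. The genes that rose were Atf3 (1.29) and Socs3 (1.12) of the gp130 list, Flna (0.93), the filamin of non-muscle cells, and Vim (0.56), the intermediate filament gene of fibroblasts and leukocytes. The calls for Socs3, Vim and Hspd1 were lost in some alternatives, with adjusted p up to 0.0617, 0.100 and 0.333. The IZ was drawn as tissue poor in cardiomyocyte RNA, so a fall of muscle genes here follows in part from the zone's definition.

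Several members lie on other annotated genes. In the RefSeq gene table Cryab overlaps Hspb2 and 2310030G06Rik, Xirp2 overlaps Gm13601 and Des overlaps Gm15179. These overlaps were found from start and end positions without regard to strand. How reads in the shared stretches were assigned was not checked, so the values of Cryab and Hspb2 carry that doubt.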

How the data were processed

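The authors deposited raw UMI counts per gene and spot, made with Space Ranger 1.3.1 from an Ensembl-based mouse reference with a GFP sequence added, and marked by hand the spots under tissue. The labels and the methods name different genome builds, so no coordinates are given for the counts. Depth is the UMI total per section, and counting intervals (95%, exact Poisson) and the limit of 3 counts cover counting error only.

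A marked spot was kept if it held 500 UMIs or more from 250 genes or more and if mitochondrial UMIs did not exceed 50%. CPM was taken over UMIs outside the 13 mitochondrial genes. A spot was low when the share of the 12 cardiomyocyte genes was under 0.5 times its section's 90th percentile, and the IZ was made of low patches of at least 10 spots. In 5 dpi-M, 623 spots outside the tissue mark were left out. Sections shared up to 1165 spot barcodes, which are array positions.

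UMIs were summed per class and section and tested in R 4.3.3 by the quasi-likelihood method of edgeR 4.0.16 (which loads limma 3.58.1), using TMM scaling, filterByExpr, a block for section and Benjamini-Hochberg adjustment at 0.05. TMM moved the median of all genes by -0.15 (BZ2 against RZ) and -0.27 (IZ against BZ2) on the log2 scale. Hearts are the replicates, with 1 section each. The spread between sections behind each edgeR p-value was in large part a value pooled over genes. In degrees of freedom, the pooled value against a gene's own weighed 13.9 to 6 by zone and 51.6 to 3 at the edge. By macrophage share the pooled value had unlimited weight against 2, so there the p-values do not measure each gene's own spread. Alternatives were DESeq2 1.42.0, other scaling, no filter, no block, other zone limits, all marked spots and each section left out. The code was tested on simulated data. Tables were handled with Python 3.11.15, NumPy 2.4.6, SciPy 1.17.1 and pandas 2.3.3.

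The members and the lists of related and marker genes were chosen with earlier results of these data known. All 9 members were named, and of each related list up to 3 called genes at each end of the log2 fold change, and the 2 genes most like each member. Genes at the edge and by macrophage share were named among members and marker lists alone. Genes named beside these (Bag3 in BZ2, Hspb2, untested genes, overlaps) were chosen after their values were seen. Some genes that this rule names are not reported here. A comparison of member proteins was not run.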

Additional observations from a re-analysis of the deposited data

Results flagged for a closer look

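Several genes moved one way at 3 dpi and the other way in both 5 dpi hearts when IZ was set against RZ. This is a contrast of 1 heart with 2, and the difference was not tested. The log2 ratio of CPM at 3 dpi, in 5 dpi-F and in 5 dpi-M was 0.80, -1.12 and -0.32 for Xirp2. For Flnc it was 0.14, -1.46 and -0.99. Des gave 0.40, -0.76 and -0.064, and Hspb1 gave 0.52, -0.40 and -0.22. In the IZ the 12 cardiomyocyte markers stood at 20457 CPM at 3 dpi against 6719 and 8676 CPM at 5 dpi, and their part in this was not tested.

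The same opposite signs appeared for Hspb1 from BZ2 to IZ, with 0.11 at 3 dpi against -1.05 and -0.85 at 5 dpi. They also appeared for Csrp3 from RZ to BZ2, with 0.066 against -0.38 and -0.11, a range close to 0. Neither difference was tested.

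The 623 spots of 5 dpi-M that are not marked as tissue also held these transcripts. The share of all genes above the control in these spots was not computed, so nothing is read from which members were above it. Sprr1a was 1309.6 CPM there, Clu 3919 CPM, Des 1416 CPM and Hspb1 588 CPM, against 0, 518, 1228 and 526 CPM in the control. Csrp3 (862 CPM), Cryab (2049 CPM), Hspb7 (552 CPM) and Flnc (183 CPM) were below the control, and Xirp2 (140.4 CPM) was level with it. The cardiomyocyte-rich patches among them had little Sprr1a, with 46.1 CPM where 50 spots lay together and 82.3 CPM where 34 did. A patch of 174 spots had 1860 CPM of Sprr1a and 4567 CPM of Clu. The 4 red cell marker genes summed to 109293 CPM there and to 86705 CPM in the patch of 50 spots with little Sprr1a, and the largest patch, 319 spots, had 487 CPM of Sprr1a and 2561 CPM of Clu. These spots entered no comparison.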

How the results depend on the processing

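The number of related genes called between BZ2 and RZ was 5 with the section as a replicate block and 1 with no replicate block, 9 with no filter on low counts, 9 with the low-spot limit at 0.4, 8 with distance from any low spot, and 1 to 7 when 1 section was left out (1 without 5 dpi-F, 2 without 5 dpi-M). Of all genes, 851 were called, against 56 with no block, 540 with the limit at 0.6 and 156 to 696 with 1 section left out. Between IZ and BZ2 the related count of 30 stayed within 1.5 times in all 11 alternatives, and the 3249 calls of all genes fell to 2127 without 5 dpi-F.

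At the edge, 1 member was called, against 0 with DESeq2 and 0 with no replicate block, 0 to 3 with 1 section left out (3 without the control, beside 0.43% of all genes called higher, and 0 without 5 dpi-M) and 5 at 5 to 9 steps. Flnc turned to -0.031 with no block and Cryab to -0.0050 with no filter, and Flnc ranged from -0.048 (without 5 dpi-M) to 0.345 with 1 section left out. The 15 calls of all genes were 0 with no block, 3 with DESeq2, 9 with no filter, 122 at 5 to 9 steps and 4 to 31 with 1 section left out. By macrophage share, no member was called, against 1 for the spots highest against those lowest in macrophage share and 0 to 4 with 1 section left out (4 without 5 dpi-F). Sprr1a turned to 0.044 with all marked spots. With 1 section left out, Sprr1a ranged from -0.139 to 0.041 (without 3 dpi), Xirp2 from -0.208 to 0.0021 and Des from -0.296 to 0.0015 (both without 5 dpi-M). The 36 calls of all genes were 26 of 3183 for the highest against the lowest spots, 32 of 5160 without 5 dpi-F, 0 with no block, 6 with DESeq2, 18 with no filter and 9 without 3 dpi. The cause of these shifts was not tested.

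Between BZ2 and RZ the mean log2 ratio per cardiomyocyte-marker UMI was 3.22 for Sprr1a, 1.55 for Xirp2, 0.83 for Flnc, 0.42 for Csrp3, 2.42 for Clu, 1.33 for Des, 0.88 for Cryab, 1.12 for Hspb1 and 0.54 for Hspb7. Over all UMIs it was 1.20 for Xirp2, 0.52 for Cryab, 0.76 for Hspb1 and 0.18 for Hspb7, with Flnc at 0.48, and the mean of Csrp3 turned from -0.14 to 0.058. Distance from any low spot gave 2.98 for Sprr1a, and the limit at 0.4 gave 0.81 for Xirp2. From the control to the mean of 5 dpi, the log2 ratio per cardiomyocyte-marker UMI was 11.8 for Sprr1a (a lower bound), 2.80 for Xirp2, 2.30 for Flnc, 5.03 for Clu, 2.54 for Des and 2.13 for Hspb1, and it turned to 1.0 for Csrp3, 1.31 for Cryab and 1.54 for Hspb7. Over all UMIs it was 10.5 for Sprr1a, 1.42 for Xirp2, 0.93 for Flnc, 3.66 for Clu, 1.16 for Des and 0.75 for Hspb1, and it turned to 0.16 for Hspb7. For Cryab it moved from -0.60 to -0.071 and for Csrp3 from -0.90 to -0.37. By section it was -0.48 in 5 dpi-F and 0.34 in 5 dpi-M for Cryab, and -0.75 and 0.0050 for Csrp3, so the lower level of both was not kept in 5 dpi-M. Leaving the 12 genes out of the denominator gave 0.78 for Xirp2 and 3.02 for Clu.

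Of the settings tried for single related genes, 14 of 55 lost a call between BZ2 and RZ and 11 of 154 between IZ and BZ2, with none reversed. No test between time points was run, since the control and 3 dpi have 1 heart each and the members were chosen on these levels. Edge classes of 5 to 65 spots hold few Sprr1a UMIs, so its edge level at a given distance is known to within a wide counting interval.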
